A study of Drosophila melanogaster with 9 samples.

Results

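This account concerns larvae reared at the medium of 3 densities, set against the average of larvae reared at the lowest and at the highest density. All 9 RNA sequencing libraries of the series entered the comparison: 3 from medium density (60 eggs per ml of food), 3 from low density (5 eggs per ml) and 3 from high density (300 eggs per ml). Each library came from 10 larvae of Drosophila melanogaster, pooled whole at the wandering end of the third instar and raised on a diet of sugar and yeast. Density was the one labelled difference; strain, sex and hours of age were not given in the labels, and one label counts eggs where another counts first-instar larvae. A value of 0 in the contrast means that medium density lay midway, on the log2 scale, between low and high density. A positive value means that a gene was higher at medium density than that midpoint.

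Larvae that share food compete for it, and they also dig it up, digest it outside the body and shape its microbes together, so that the effect of crowding need not run in 1 direction. Fly larvae store fat and serum protein in the fat body, an organ with roles of both liver and adipose tissue. At the wandering stage they have left the food, the salivary glands have filled with glue, and a pulse of the steroid ecdysone is preparing the pupa. In males the larval testis already holds many primary spermatocytes, cells that transcribe a large set of genes used in no other tissue, including the fertility genes of the Y chromosome and testis versions of proteasome and respiratory chain subunits. The roX RNAs belong to the complex that raises X-linked transcription in males, and are made chiefly by males.

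Library totals lay between 16822606 and 25141308 expected counts, and 12883 of 17759 genes passed the filter on low counts. Levels are given as CPM, counts scaled to a common library size with TMM factors. TMM factors were between 0.906 and 0.947 at medium density, between 0.98 and 1.01 at low density and between 1.023 and 1.143 at high density. Mitochondrial large ribosomal RNA took between 7.37% and 10.2% of the counts at medium density, between 6.27% and 8.55% at low density and between 10.1% and 11.4% at high density. Nothing says that the 3 pools of a density came from separate cultures, so p-values measure the spread between these pools.

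In the contrast, a smaller set of genes was higher at medium density and a larger set was lower. The edgeR quasi-likelihood test called 3358 genes (26.1% of those tested) at a Benjamini-Hochberg adjusted p under 0.05. Medium density was higher in 1221 of them (9.48%) and lower in 2137 (16.6%). The rises were small, with a median of 0.37 on the log2 scale and only 77 genes over 2-fold. The falls had a median of -1.3, and 1713 of them were over 2-fold. The median over all genes tested was 0.03. The genes that fell were shorter than those that rose, with a median exon length of 1327 bases against 2281, and 1787 over all genes tested.

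A gene passes this contrast when medium density lies outside both extremes, but also when it equals 1 extreme and the other differs. Most falls were of the first kind: the medium mean lay below both other means in 2131 of 2137 genes (99.7%), and the 3 medium libraries lay below all 6 others in 1908 of them (89.3%). Among the rises, the medium mean lay above both other means in 1096 of 1221 genes (89.8%), and the 3 medium libraries lay above all 6 others in 632 (51.8%). Over all genes tested, the medium libraries lay above the other 6 in 7.61% and below them in 16.6%. A medium mean outside both others was common among genes not called too. It lay above both in 349 of these without overlap of libraries and in 3209 with overlap. It lay below both in 227 and 2027, and between them in 3713. The rises leaned on the distance to high density: their median was 0.16 for medium minus low and 0.59 for medium minus high. For the falls these medians were -1.08 and -1.51. The scatter of both differences shows the falls as 1 compact cloud near those values and the rises as a cluster close to the line where medium equals low.

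**Figure D1:**
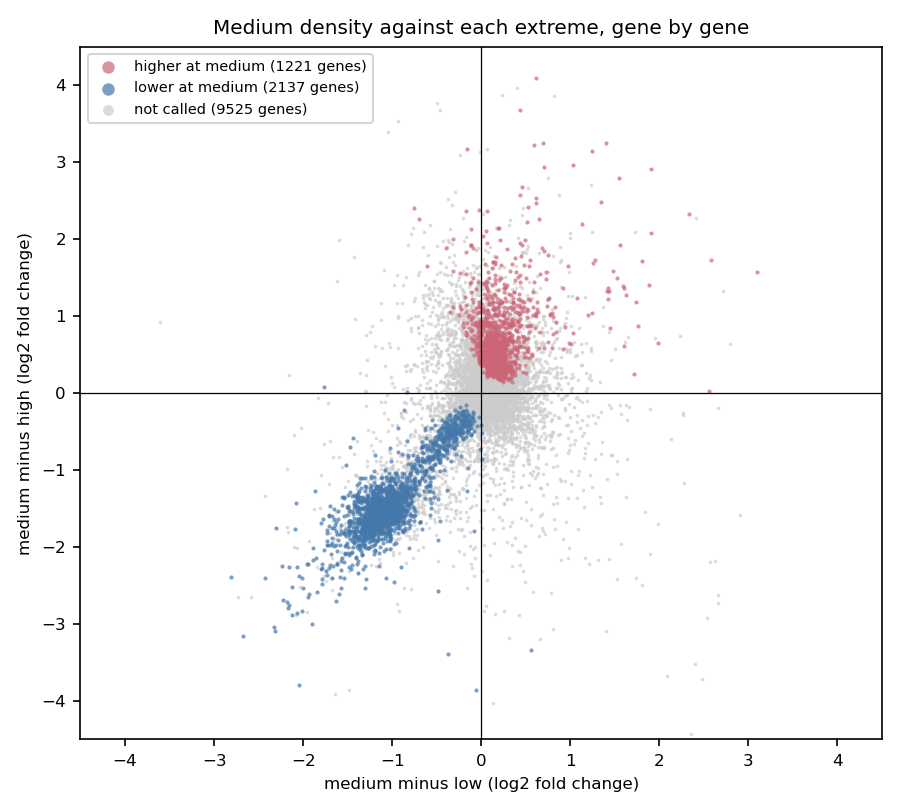
Each point is a gene, with the log2 fold change of medium minus low density on the x axis and of medium minus high density on the y axis. Red points are the 1221 genes called higher and blue points the 2137 called lower in the contrast of medium with the mean of both extremes; grey points were not called, and 6 genes lie outside the axes. Both axes share the medium libraries.

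When medium density had to differ from each extreme on its own, taking the larger of the 2 p-values for each gene, edgeR called 0 genes after adjustment, and the smallest adjusted p was 0.159. At an unadjusted p under 0.05 there were 2452 genes (19%), 406 above both extremes (3.15%) and 2046 below both (15.9%). On the same libraries limma voom also called 0 after adjustment, and DESeq2 called 135 above both and 788 below both. The limiting side was low density. Medium against low gave 0 calls with edgeR, with 3223 genes at an unadjusted p under 0.05. Under limma voom it gave 0 calls and under DESeq2 1515. Medium against high gave 5102 calls with edgeR (39.6%).

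The counts also rested on single pools. Leaving out medium replicate 1 left 4 rises and 0 falls, leaving out medium replicate 3 left 7 and 1, and leaving out low replicate 2 left 27 and 1. Omitting low replicate 1 gave 579 rises and 888 falls, omitting high replicate 2 gave 525 and 515, and the counts were 1846 and 2559 without high replicate 1, and 1778 and 2027 without high replicate 3. With upper-quartile factors in place of TMM, rises made up 25% of the calls, and with library totals alone 9.98%, against 36.4% with TMM. Library totals alone moved the median of all genes to -0.14, by more than RLE or upper-quartile factors did. The counts of called members in the gene lists below share this dependence.

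Just 4 genes were called, all as rises, in each of the 9 fits that left out 1 library. Lsd-1 (chromosome 3R, 23763857 to 23766662, Release 6) codes for perilipin 1, which coats the lipid droplets of the fat body and governs their breakdown. It stood at 436, 356 and 379 CPM at medium density, against 289, 282 and 278 CPM at low density and 111, 103 and 94.5 CPM at high density. The 3 medium libraries were above all others, the low libraries came next and the high libraries were lowest, with no overlap between densities. The contrast was 1.2 ± 0.08 (log2, SE), with an edgeR adjusted p of 0.00239, and it stayed at or below 0.0268 in every fit that left out a library. Against low density alone the edgeR adjusted p of Lsd-1 was 0.13, and against high density alone 0.000248.

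The other 3 such genes had the same order of densities. CG42586 (chromosome 2L, 14741161 to 14741840) stood at 562, 435 and 399 CPM at medium density, against 323, 269 and 273 CPM at low density and 58.1, 38.8 and 50.1 CPM at high density, a contrast of 1.97 ± 0.14 (log2, SE; edgeR adjusted p 0.00239). Some of its counts are fractions shared with near-identical sequence, in all 9 libraries. CG31775, which lies on the same arm at 14737090 to 14737769, was called in 8 of the 9 fits, at 69.8, 69.7 and 63.6 CPM at medium density, against 51, 38.4 and 34.7 CPM at low density and 10.7, 6.24 and 9.43 CPM at high density. CG10962 (chromosome X, 8972908 to 8974255) stood at 97.5, 66.6 and 88.9 CPM at medium density, against 61, 47.6 and 55.6 CPM at low density and 15.9, 14.5 and 13.2 CPM at high density. Had2 (chromosome 2R, 14629910 to 14631023) changed least of the 4, at 63.1, 58.5 and 60 CPM at medium density, against 51.4, 47.8 and 51.4 CPM at low density and 25, 23 and 21.8 CPM at high density. In each of these genes the step between medium and high density was larger than that between medium and low, for example 3.25 against 0.69 on the log2 scale for CG42586. The 4 genes called in every such fit lost the call with roX or the mean of the spermatocyte genes as a covariate. They also lost it when low and high density formed 1 group, and when a straight line over density replaced the mean of the extremes.

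**Figure D2:**
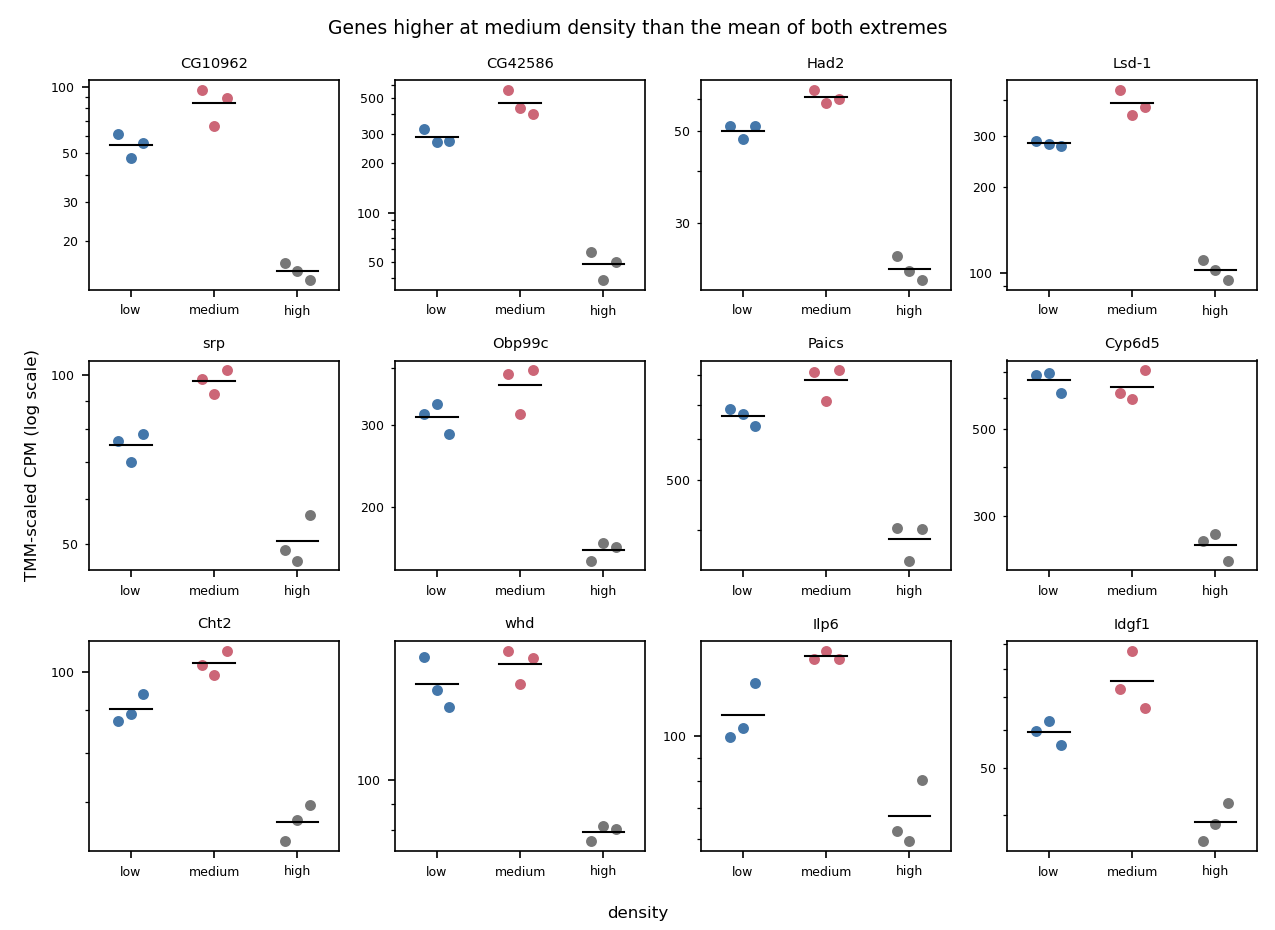
TMM-scaled CPM on a log axis, by density, for the 4 genes called in every fit that left out 1 library (top row) and the 8 further members of the gene lists called higher with the smallest p. Each point is a library and each line a mean of 3; Lsd-1, for example, stood between 356 and 436 CPM at medium density, above all 6 other libraries, while Cyp6d5 at medium density overlapped low density.

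Genes of the testis were lower at medium density than at either extreme. All 44 spermatocyte and sperm genes were called lower, where 16.6% of all genes were, with a median contrast of -1.32 and a range of -1.83 to -0.53. Their CPM summed to between 758 and 1710 at medium density, between 2250 and 2970 at low density and between 2080 and 4600 at high density, so that no medium library reached any other. The medium mean was below both others in all 44, and the 3 medium libraries were below all 6 others in 41. The calls needed particular pools: 0 of the 44 were called without medium replicate 1, medium replicate 3 or low replicate 2, 15 when low replicate 1 was left out and 5 when high replicate 2 was, although all 44 contrasts stayed negative in each of the 9 fits that left out a library, with list medians between -1.65 and -1.07. In whole larvae, fewer testis cells and less RNA per testis cell cannot be told apart.

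The list runs from transcriptional regulators to structural sperm proteins, and its members moved alike. Among the regulators, tomb, a subunit of the complex that switches on spermatocyte genes, stood at 0.865, 1.07 and 0.599 CPM at medium density, against 3.52, 2.68 and 2.3 CPM at low density and 2.62, 3.69 and 3.43 CPM at high density. Its contrast was -1.83 ± 0.26 (log2, SE), with an edgeR adjusted p of 0.0165. The testis TAF gene sa stood at 3.03, 4.69 and 2.75 CPM at medium density, against 7.21, 10.3 and 8.39 CPM at low density and 6.75, 9.52 and 11.1 CPM at high density. Neither gene's medium libraries overlapped the rest. The homeodomain gene achi, a further regulator of spermatocyte transcription, fell least of those with small p-values, by 0.59 on the log2 scale, and its reads are partly shared with a near-identical neighbour in all 9 libraries. Among the products, betaTub85D, the tubulin of the sperm tail and meiotic spindle, stood at 69.2, 94.9 and 42.8 CPM at medium density, against 146, 165 and 130 CPM at low density and 120, 222 and 263 CPM at high density. The gene ocn, which codes for an abundant testis protein, stood at 41.9, 59.7 and 24.2 CPM at medium density, against 85, 111 and 81.5 CPM at low density and 82.7, 138 and 173 CPM at high density. In the last 2 genes medium replicate 3 was the lowest library and high replicate 3 the highest.

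Other sets that spermatocytes use went the same way. Of 12 Y-linked fertility genes, 8 were called lower (66.7%, against 16.6% of all genes) and 0 higher. Their median of -1.46 stayed between -1.59 and -1.23 when single libraries were left out. ARY (chromosome Y, 702430 to 704048), an aldehyde reductase gene, stood at 2.4, 2.77 and 1.9 CPM at medium density, against 5.82, 7.62 and 4.33 CPM at low density and 5.91, 8.59 and 10.5 CPM at high density. The contrast was -1.57 ± 0.26 for ARY, -1.64 ± 0.35 for the phosphatase gene Pp1-Y1 and -0.79 ± 0.17 for FDY (log2, SE). Over the whole Y chromosome 19 of 29 genes tested fell (65.5%) and 0 rose, against between 3.06% and 20.2% falling on the X and the autosomes. Of 15 testis copies of proteasome subunits 12 were called lower (80%), with a median of -1.38. Like the spermatocyte list, both of these lists had 0 calls without medium replicate 1, medium replicate 3 or low replicate 2. Rpt3R, a copy of a base ATPase, stood at 9.23, 13.1 and 7.64 CPM at medium density, against 21.4, 26.2 and 16.8 CPM at low density and 16.8, 23.9 and 27.1 CPM at high density. Prosbeta2R1, a copy of a catalytic subunit, had a contrast of -1.49 ± 0.3, and Rpn13R, a copy of a ubiquitin receptor, one of -1.34 ± 0.26. Rpt6R was not called, at -0.33 ± 0.13, and its medium libraries overlapped those of high density.

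Within families that mix general and testis forms, the split in calls followed the copies. Among nuclear genes for respiratory chain and ATP synthase subunits, all 16 tested copies whose symbol carries the suffix L, some with a further digit, were called lower (median -1.39, range -1.76 to -0.94), whereas 0 of the 62 others were called lower and 1 was called higher. Contrasts of those 62 had a median of 0.07 and ranged from -2.77, in a gene not called, to 0.23. COX4L, a copy of a cytochrome oxidase subunit, stood at 12.4, 17.7 and 8.64 CPM at medium density, against 28.9, 30.6 and 25.4 CPM at low density and 28.7, 45.2 and 52.1 CPM at high density. ND-20L of complex I and UQCR-14L of complex III had contrasts of -1.64 ± 0.27 and -1.65 ± 0.3 (log2, SE). This grouping by suffix was made after the values were seen. The median of the whole respiratory list was 0.01, and turned to -0.16 with library totals alone and to -0.05 with upper-quartile factors.

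Cytosolic ribosomal proteins also split between copies: 5 members fell, each of which has a paralog in the list that did not. They were RpL37b, RpS5b, RpS19b, RpL10Aa and RpS10a, and whether these are testis forms was not tested. Within densities, RpL37b and RpS19b rose with the mean log2 CPM of the spermatocyte genes, and RpS5b did not pass the threshold. RpL37b stood at 3.56, 4.52 and 2.2 CPM at medium density, against 9.26, 11.1 and 7.58 CPM at low density and 8.69, 12.1 and 11.8 CPM at high density. RpS19b fell by 1.08 and RpS5b by 0.85 on the log2 scale. The remaining members leaned upward, with 13 of 87 tested called higher (14.9%, against 9.48% of all genes) and a list median of 0.24. The medium mean was above both others in 82, a position also common among genes not called. None of the 13 calls was left under upper-quartile factors or library totals alone, where the list median was 0.18 and 0.07. The most abundant ribosomal protein RNA for its length, RpL41, was not called, at 1360, 1240 and 1420 CPM at medium density, against 1550, 1220 and 1140 CPM at low density and 1240, 962 and 1040 CPM at high density.

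The medium pools differed among themselves in this respect. The mean log2 CPM of the 44 spermatocyte genes was 3.73, 4.32 and 3.17 in medium replicates 1, 2 and 3, against 4.88, 5.12 and 4.72 in the low pools and 4.61, 5.4 and 5.66 in the high pools. Over all genes called lower, the median difference from the mean of the 6 other libraries was -1.31, -0.73 and -1.84 in medium replicates 1, 2 and 3. Over the genes called higher it was 0.39, 0.34 and 0.38, so the rises were even across the pools where the falls were not. The median SD of the lower genes was 0.552 at medium, 0.206 at low and 0.514 at high density on the log2 scale. For the higher genes it was 0.0803 at medium, 0.0824 at low and 0.145 at high density.

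Pools of the same density were used to ask which other genes tracked the spermatocyte score, with density held fixed. Leaving out 71 genes of the testis lists, 1553 of the 2073 remaining lower genes (74.9%) rose with the score within densities at an edgeR adjusted p under 0.05, and 0 ran against it. Of the 1221 higher genes 2 (0.164%) rose with it and 33 (2.7%) ran against it, and of the 9518 genes not called 390 (4.1%) rose with it. Over all genes tested 15.6% rose with the score and 2.97% ran against it. The same libraries supply the contrast and the score, so these shares are a description. With the score as a covariate the contrast gave 1 rise and 0 falls, and 1706 genes at an unadjusted p under 0.05. The score of every medium pool lay below that of every other pool, so this fit cannot separate the score from density.

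The roX RNAs of males were also lowest in some medium pools, without passing the threshold. The gene roX1 stood at 196, 402 and 131 CPM at medium density, against 754, 506 and 330 CPM at low density and 346, 585 and 574 CPM at high density, a contrast of -1.09 ± 0.4 (log2, SE) with an edgeR adjusted p of 0.0778. Reads of roX1 are partly fractions in all 9 libraries. The gene roX2 stood at 8.89, 20.1 and 6.14 CPM at medium density, against 37.1, 24.6 and 15.1 CPM at low density and 15.2, 26.2 and 25.5 CPM at high density, a contrast of -1.03 ± 0.42 with an adjusted p of 0.108. In both genes medium replicates 1 and 3 were below all other libraries and medium replicate 2 was within the others. With roX as a covariate the contrast gave 0 calls in either direction, with 2184 genes at an unadjusted p under 0.05. The share of males in each pool is not given in the labels, and it cannot be told apart from density here. Of the 7 genes of the dosage compensation list 0 were called by edgeR and by limma voom and 3 by DESeq2, with 5 at an unadjusted p under 0.05. Over all 12883 genes tested, DESeq2 called 1783 higher and 2516 lower, and edgeR had 5164 at an unadjusted p under 0.05. The protein members msl-2 and mof had contrasts of -0.4 ± 0.15 and -0.3 ± 0.1. With library totals alone 3 of the 7 genes of that list were called lower, where 3094 of all 12883 genes were.

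**Figure D3:**
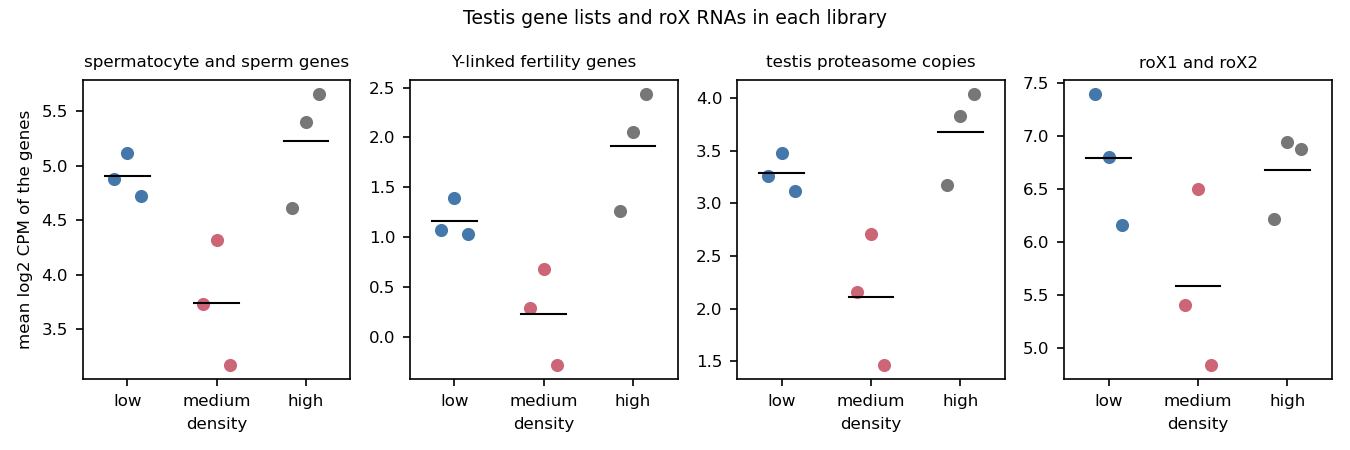
Mean log2 CPM of the 44 spermatocyte and sperm genes, the 12 Y-linked fertility genes, the 15 testis copies of proteasome subunits, and roX1 with roX2, by density; each point is a library and each line the mean of 3. The 3 medium libraries lay below all others for each testis list (3.17 to 4.32 for the spermatocyte genes), while 1 medium library lay among the others for roX.

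Genes of sex determination and yolk moved in the other direction in part. Of 8 tested, 4 were called higher (Sxl, dsx, ix and Yp3, 50% against 9.48% of all genes) and 1 lower (tra2). Yp3, a yolk protein gene of females, stood at 2.79, 1.12 and 3.45 CPM at medium density, against 0.304, 0.335 and 0.812 CPM at low density and 0.76, 0.364 and 0.318 CPM at high density. Its 3 medium libraries were above the rest, with a contrast of 2.33 ± 0.45 (log2, SE) and an edgeR adjusted p of 0.0213. Sxl, the switch gene that directs female development, stood at 252, 265 and 285 CPM at medium density, against 157, 183 and 237 CPM at low density and 220, 164 and 194 CPM at high density. The splicing regulator tra2, which acts in females and also in the male germ line, stood at 32.2, 33.4 and 31.4 CPM at medium density, against 44.7, 46.6 and 39.6 CPM at low density and 41, 44.9 and 47.6 CPM at high density. The partner gene ix rose by less, 0.37 ± 0.1, and its medium libraries overlapped those of low density. Under each of the other scalings by upper quartile or by library total, 1 rise and 1 fall of this list were left. Over all alternative fits dsx was no longer called in 18 of 23, ix in 13 of 24, Sxl in 11 of 23 and Yp3 in 6 of 23. Counts were summed over the exons of each gene, so splice forms were not told apart.

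Among genes with a mean of 5 CPM or more at their highest density and medium libraries above the other 6, those furthest above both extremes were mostly ribosomal RNA pseudogenes. Of the 8 with the largest smaller step, 7 were such sequences, and of the 10 tested 9 were called higher, where 9.48% of all genes were. These are fragments of the ribosomal DNA on the X chromosome or on unplaced scaffolds, and their counts include fractions of read pairs that map to several copies in all 9 libraries, so how reads divide among them is uncertain. The one with the most counts, 28SrRNA-Psi:CR45851, stood at 1150, 906 and 1010 CPM at medium density, against 471, 324 and 354 CPM at low density and 525, 278 and 391 CPM at high density. The contrast was 1.39 ± 0.19 (log2, SE), with an edgeR adjusted p of 0.0165. The 18S fragment 18SrRNA-Psi:CR41602 (chromosome X, from 23211192) stood at 397, 302 and 370 CPM at medium density, against 152, 117 and 114 CPM at low density and 177, 67.2 and 111 CPM at high density. Medium libraries were above all others in both, and replicate 1 was the highest within both low and high density. The libraries were made from mRNA selected out of total RNA, so these reads stand for what passed that selection. One fragment, 28SrRNA-Psi:CR45860, overlapped between densities, at 46.4, 98.1 and 248 CPM at medium density, against 15.7, 14.1 and 16 CPM at low density and 103, 12 and 16.6 CPM at high density.

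The one protein-coding gene among these 8 was CG5697 (chromosome 3R, 21015949 to 21017120). It stood at 22.7, 17.7 and 31.7 CPM at medium density, against 4.35, 3.77 and 11.1 CPM at low density and 0.0844, 1.25 and 7.95 CPM at high density. The medium libraries did not overlap the rest, although both other densities varied widely, and the contrast of 2.41 ± 0.76 (log2, SE) had an edgeR adjusted p of 0.0486. With the same limit of 5 CPM, the largest rises outside that group and the ribosomal fragments were CG3348, vanin-like and nol. The gene vanin-like, of the pantetheinase family, stood at 46, 29.1 and 39.7 CPM at medium density, against 14.7, 23.5 and 10.2 CPM at low density and 6.54, 3.9 and 2.47 CPM at high density. CG3348 at medium density overlapped low density, at 23.1, 18.4 and 55.4 CPM at medium density, against 19.7, 25.2 and 18.5 CPM at low density and 2.19, 2.03 and 1.45 CPM at high density. The medium libraries of nol, at 8.03, 3 and 13.4 CPM, overlapped those of low density, at 1.09, 1.01 and 4.42 CPM, while high density held 1.86, 2.55 and 1.38 CPM.

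With the same limit of 5 CPM, the genes furthest below both extremes were led by the chitinase gene Cht9, followed by 7 genes named only by identifiers. Cht9 (chromosome 2R, 21067992 to 21069286) stood at 7.64, 4.87 and 4.09 CPM at medium density, against 22.8, 21.2 and 19.4 CPM at low density and 50.7, 35.7 and 15.3 CPM at high density. Its contrast was -2.27 ± 0.39 (log2, SE), with an edgeR adjusted p of 0.0194, and it did not follow the spermatocyte score within densities. The other 7 did follow that score: CG15196, CG14628, CG10822, CG7213, CG5347, CG5342 and CG33060, with contrasts between -1.88 and -1.63. CG33060 stood at 1.59, 2.82 and 0.849 CPM at medium density, against 5.43, 5.49 and 4.92 CPM at low density and 4.9, 9.05 and 9.96 CPM at high density. CG14628 stood at 1.92, 2.37 and 1.25 CPM at medium density, against 5.69, 8.25 and 4.2 CPM at low density and 3.59, 7.49 and 7.45 CPM at high density. In all 7 of these genes medium replicate 3 was the lowest library. By size of the contrast alone, and with the same limit, the falls were led by hgo, which codes for the enzyme that opens the ring of homogentisate in tyrosine breakdown. It stood at 0.192, 0.0447 and 0.0499 CPM at medium density, against 0.304, 0.0838 and 0.0903 CPM at low density and 6.63, 8.12 and 2.9 CPM at high density. Medium and low density both lay near the floor of 3 counts, between 0.119 and 0.178 CPM, so this contrast comes from high density. The 3 next largest falls not yet named were CG33667, the testis proteasome gene Prosalpha4T1 and CG3473, with contrasts between -1.87 and -1.77, and their medium libraries were below all others.

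**Figure D4:**
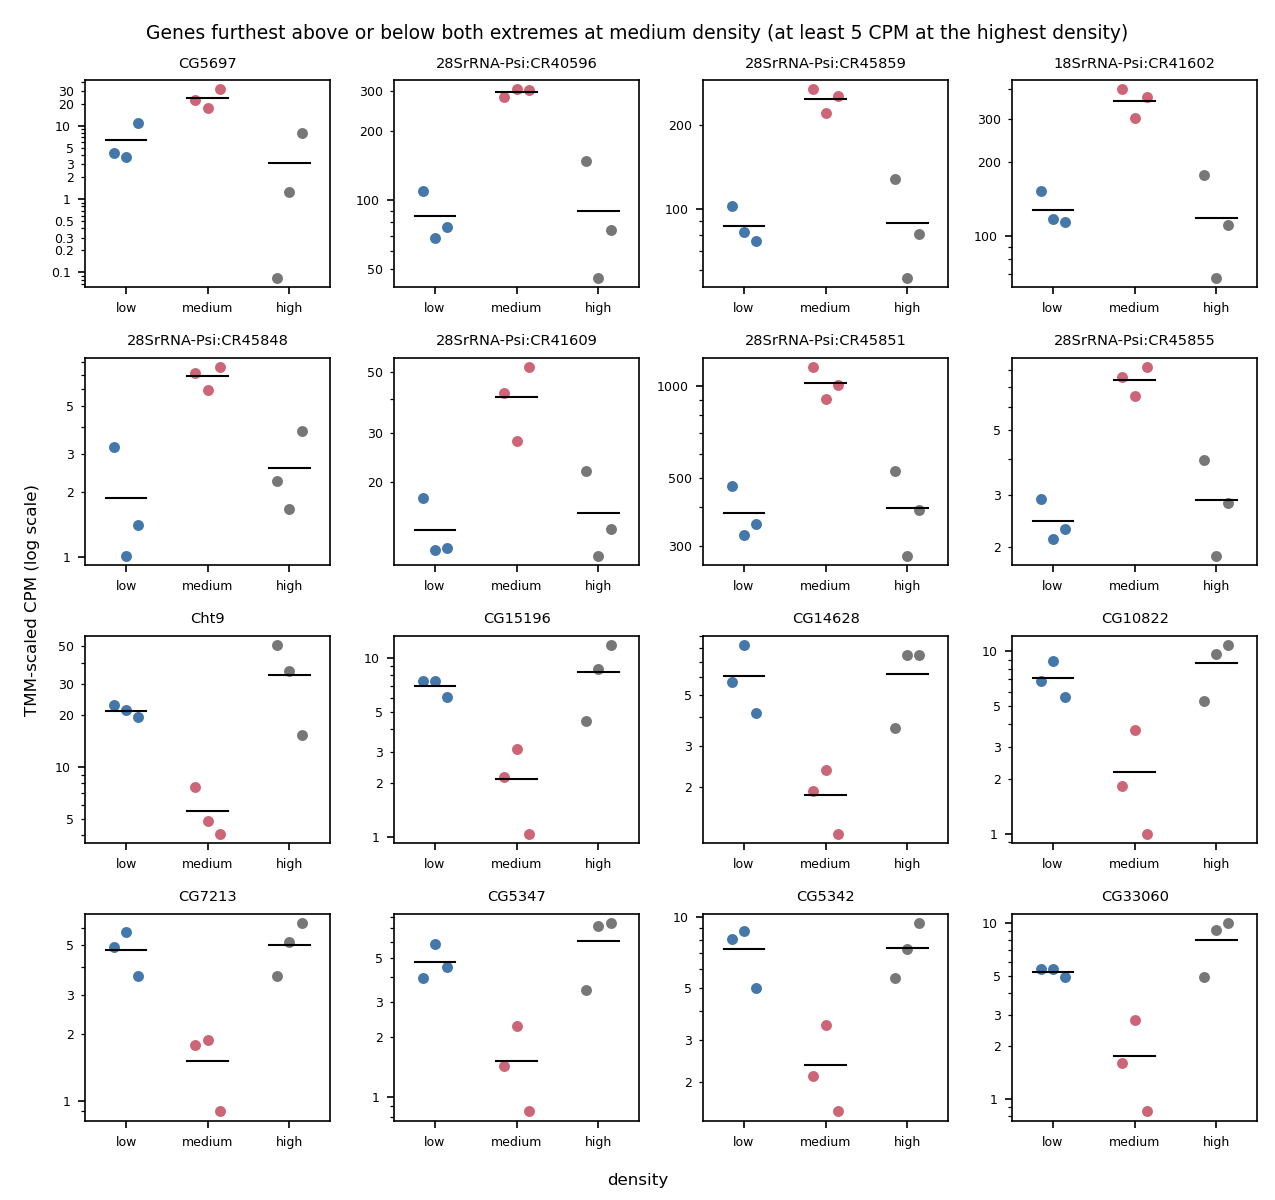
TMM-scaled CPM on a log axis, by density, for the 8 genes furthest above (upper rows) and the 8 furthest below (lower rows) both extremes at medium density, among those averaging 5 CPM or more at their highest density; each point is a library and each line a mean of 3. In every panel the 3 medium libraries lie outside the other 6, as the choice of these genes required. CG5697, for example, stood between 17.7 and 31.7 CPM at medium density.

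Of all lists, lipid storage and fatty acid oxidation, which includes Lsd-1, had the largest share of rises. Of its 18 genes, 11 were called higher (61.1%, against 9.48% of all genes) and 1 lower, with a median of 0.32. The list median was 0.15 for medium minus low and 0.49 for medium minus high. The gene whd, the carnitine palmitoyltransferase that admits fatty acids to mitochondria, stood at 179, 154 and 173 CPM at medium density, against 174, 150 and 139 CPM at low density and 76, 81.5 and 80.4 CPM at high density. Medium and low density overlapped in whd, and the same held for the acyl-CoA dehydrogenase gene Mcad, at 378, 272 and 334 CPM at medium density, against 370, 302 and 292 CPM at low density and 182, 182 and 161 CPM at high density. Mtpalpha, the trifunctional protein of the oxidation cycle, stood above all other libraries, at 173, 166 and 169 CPM at medium density, against 141, 137 and 153 CPM at low density and 124, 117 and 119 CPM at high density. The fall was that of Lip3, a lipase gene, at 17.7, 7.11 and 12.6 CPM at medium density, against 30.9, 23.7 and 24 CPM at low density and 79.6, 62 and 57.2 CPM at high density. The list held 4 rises with library totals alone, 6 when low replicate 3 was left out, 5 when high replicate 2 was, and 1 (Lsd-1) without medium replicate 1, medium replicate 3 or low replicate 2, while its median stayed between 0.28 and 0.38 in all 9 fits that left out a library.

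Other fat body products varied in whether medium exceeded low density. Fbp2, a fat body protein of the late larva, was the 1 member of 6 larval serum and fat body genes to be called, at 12700, 8950 and 10800 CPM at medium density, against 8180, 9040 and 9460 CPM at low density and 4720, 4170 and 5260 CPM at high density. Fbp1, the receptor for serum proteins, was not called (0.44 ± 0.16). Of 9 fatty acid synthesis genes 1 rose and 1 fell. The desaturase gene Desat1 stood at 215, 226 and 227 CPM at medium density, against 190, 173 and 186 CPM at low density and 212, 174 and 176 CPM at high density, above all other libraries. ACC, the committed step of fatty acid synthesis, fell by 0.17 on the log2 scale, with medium near low density. Of 13 glycolysis genes 1 was called, lactate dehydrogenase (Ldh), at 64.2, 51.8 and 51.6 CPM at medium density, against 50.9, 45.2 and 48 CPM at low density and 39.3, 42.1 and 33.6 CPM at high density. The medians of these 3 lists were 0.6, 0.19 and 0.32. Their shares called higher were 16.7%, 11.1% and 7.69%, against 9.48% of all genes.

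Insulin and hormone genes gave several rises in which medium stood apart from both extremes. Of 8 tested insulin pathway genes 3 were called higher (37.5%, against 9.48% of all genes) and 0 lower, with a median of 0.29. Ilp6, the insulin-like peptide that the fat body makes, stood at 147, 153 and 147 CPM at medium density, against 99.9, 104 and 130 CPM at low density and 62.6, 59.4 and 80.4 CPM at high density. Its medium libraries were above all others, and the contrast was 0.78 ± 0.11 (log2, SE) with an edgeR adjusted p of 0.0165. The transcription factor gene foxo, which insulin signalling holds in check, stood at 84.4, 89.6 and 96.2 CPM at medium density, against 74.7, 73.3 and 76.4 CPM at low density and 59.9, 52.7 and 65 CPM at high density. Thor, the translation repressor 4E-BP and a target of foxo, rose by 0.47 ± 0.11, with overlap of medium and low density. All 3 were also called with library totals alone.

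Both receptors of juvenile hormone, which holds larvae in the larval state, were called higher among 9 genes of that list. That was 22.2% of the list, against 9.48% of all genes. The receptor gene gce stood at 60.7, 56.7 and 65.9 CPM at medium density, against 41.2, 44.4 and 54 CPM at low density and 46.1, 33.2 and 43.8 CPM at high density. Met stood at 24, 23.6 and 23.3 CPM at medium density, against 19.7, 19.9 and 19.8 CPM at low density and 21.6, 18.5 and 19.8 CPM at high density. Neither overlapped the other densities, with contrasts of 0.48 ± 0.12 and 0.25 ± 0.07, and neither was called with library totals alone. Of 20 ecdysone response genes 2 were called higher (10%), close to the 9.48% of all genes. The receptor partner usp stood at 54.7, 52.9 and 53.4 CPM at medium density, against 46.4, 39.5 and 46.1 CPM at low density and 46.8, 40 and 39.5 CPM at high density. The early gene br overlapped between medium and low density and had a contrast of 0.36 ± 0.11. Of 13 tested genes of ecdysone synthesis and breakdown 1 was called, the synthesis gene sro, at 62.5, 48.6 and 56.6 CPM at medium density, against 44.5, 47.4 and 48.6 CPM at low density and 35.7, 36 and 29 CPM at high density. The median of that list was 0.09, and -0.09 with library totals alone. Its share called higher was 7.69%, below the 9.48% of all genes.

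Blood cell genes were among those with rises above both extremes. Of 15 blood cell and melanization genes 5 were called higher (33.3%, against 9.48% of all genes) and 0 lower, with a median of 0.52. The GATA factor gene srp, which directs blood cell and fat body identity, stood at 98.4, 92.5 and 102 CPM at medium density, against 76.1, 70 and 78.5 CPM at low density and 48.7, 46.6 and 56.3 CPM at high density, a contrast of 0.67 ± 0.07 (log2, SE) with an edgeR adjusted p of 0.0128. NimC1, a phagocytosis receptor of plasmatocytes, stood at 44.5, 23.4 and 30 CPM at medium density, against 22, 20.9 and 20.1 CPM at low density and 20.1, 13.3 and 12.4 CPM at high density. Medium libraries were above all others in both. The scavenger receptor gene crq did not separate medium from low density, at 182, 174 and 165 CPM at medium density, against 188, 161 and 173 CPM at low density and 91.4, 88.7 and 110 CPM at high density. Of the humoral immune lists, 3 of 12 peptidoglycan recognition genes, 1 of 9 antibacterial peptide genes (AttC), 1 of 7 Bomanin genes (IM33), 1 of 3 Turandot genes (TotB) and 0 of 4 Drosomycin genes were called by edgeR, all higher. These shares were 25%, 11.1%, 14.3%, 33.3% and 0%, against 9.48% of all genes. The antibacterial list as a whole leaned the other way, with a median of -0.15 and 6 of 9 medium means below both others. That position was also common among genes not called. The antibacterial genes AttA and CecA1 had contrasts of -1.59 ± 0.56 and -1.58 ± 0.65, with edgeR adjusted p of 0.0692 and 0.108. DESeq2 called 4 peptidoglycan recognition genes, 4 antibacterial, 1 Bomanin, 2 Turandot and 1 Drosomycin gene, and limma voom called 2, 1, 1, 0 and 0. At an unadjusted p under 0.05 edgeR had 5, 4, 1, 2 and 1. Over all 12883 genes tested, edgeR had 5164 at that unadjusted threshold. DESeq2 called 1783 of all genes higher and 2516 lower, and limma voom called 1236 and 1863. The receptor gene PGRP-LC of the Imd pathway had 57.3, 60.9 and 59.4 CPM at medium density, against 53.5, 53.4 and 53.8 CPM at low density and 45.9, 42.7 and 50.5 CPM at high density. The peptide genes overlapped between medium and low density, as did TotB, whose medium libraries held 8.99, 2.06 and 1.55 CPM, against 0.826, 2.35 and 1.58 CPM at low density and 0.295, 0.989 and 0.106 CPM at high density.

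In the nitrogen and purine genes the contrast arose from high density more than from a peak. Of 12 genes of ammonia, urate and purine synthesis 5 were called higher (41.7%, against 9.48% of all genes) and 0 lower, with a median of 0.32. Paics, a bifunctional enzyme of purine synthesis, stood above all other libraries, at 811, 713 and 818 CPM at medium density, against 686, 672 and 637 CPM at low density and 403, 348 and 402 CPM at high density. The glutamine synthetase gene Gs1 stood at 1070, 1190 and 1240 CPM at medium density, against 1190, 1090 and 1100 CPM at low density and 345, 325 and 665 CPM at high density, so that medium and low density overlapped. The purine synthesis genes AdSL and Prat2 overlapped in the same way, with contrasts of 0.49 ± 0.08 and 0.52 ± 0.13. In the breakdown of phenylalanine and tyrosine, 1 of 8 genes rose, the phenylalanine hydroxylase gene Hn (0.59 ± 0.15), and 1 fell, hgo. Each was 12.5% of that list, where 9.48% of all genes rose and 16.6% fell.

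The proteasome of all tissues showed small, even rises in the contrast, mostly through the distance to high density. The list median was 0.04 for medium minus low and 0.35 for medium minus high. Of 32 subunits of the 26S proteasome 11 were called higher (34.4%, against 9.48% of all genes) and 0 lower, every contrast was positive, between 0.12 and 0.34, and the median was 0.2. Rpt4, a base ATPase, stood at 300, 285 and 289 CPM at medium density, against 263, 266 and 249 CPM at low density and 222, 192 and 201 CPM at high density. Rpt2, a further ATPase, stood at 410, 395 and 381 CPM at medium density, against 380, 371 and 363 CPM at low density and 316, 281 and 295 CPM at high density. Both had their medium libraries above all others, whereas in Rpn3, of the lid, medium and low density overlapped. The calls depended on scaling, with 2 rises left under upper-quartile factors and 1 under library totals alone, where the median was 0.02. Without high replicate 1 there were 29 rises, and between 0 and 2 without any 1 of the low pools, of the medium pools or high replicate 2, with the median between 0.18 and 0.23 throughout.

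Iron, detoxification and digestion genes were mixed, and over all genes 9.48% rose and 16.6% fell. Of 12 metallothionein and iron genes 4 rose (33.3%) and 2 fell (16.7%). Both ferritin subunits rose with medium close to low density: Fer2LCH stood at 618, 547 and 563 CPM at medium density, against 584, 588 and 533 CPM at low density and 318, 290 and 331 CPM at high density, and Fer1HCH had a contrast of 0.38 ± 0.09. The third ferritin gene, Fer3HCH, fell, at 1.2, 1.3 and 0.899 CPM at medium density, against 2.78, 2.43 and 2.39 CPM at low density and 1.9, 2.65 and 4.06 CPM at high density. Of 71 cytochrome P450 genes 9 rose (12.7%) and 2 fell (2.82%), with a median of 0.08 that turned to -0.08 with library totals alone. Cyp6v1 had medium libraries above all others, at 70.5, 61.4 and 67.1 CPM at medium density, against 57.8, 56 and 60.2 CPM at low density and 46, 38.2 and 41.5 CPM at high density, whereas Cyp6d5 stood at 621, 599 and 709 CPM at medium density, against 688, 696 and 620 CPM at low density and 258, 269 and 230 CPM at high density. Of 34 glutathione transferase genes 3 rose (8.82%) and 2 fell (5.88%), with a median of 0.07 and of -0.1 with library totals alone. GstO1, of the omega class, fell by 0.61, below all other libraries, and GstE9, of the epsilon class, rose by 1.1 with medium near low density. Of 13 amylase and maltase genes 3 rose (23.1%), and only Mal-A5 stood above all other libraries, at 527, 437 and 520 CPM at medium density, against 391, 424 and 379 CPM at low density and 297, 229 and 279 CPM at high density. Of 26 trypsin and Jonah protease genes 1 rose (3.85%), Jon65Ai, and of 21 odorant-binding protein genes 2 rose (9.52%), Obp99b and Obp99c, the last with a contrast of 0.71 ± 0.09.

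Chitinase and chitinase-like genes went both ways, with 5 of 19 called higher (26.3%, against 9.48% of all genes) and 3 lower (15.8%, against 16.6%) and a median of 0.17, or -0.01 with library totals alone. The fallers, Cht4, Cht9 and Cht12, lie next to each other on chromosome 2R between 21063178 and 21069286, and each had its medium libraries below all others. Cht4 stood at 4.57, 5.19 and 2.3 CPM at medium density, against 14.3, 12 and 13 CPM at low density and 12.7, 11.8 and 9.08 CPM at high density. Among the risers, Cht2 stood at 102, 99.2 and 106 CPM at medium density, against 87.5, 89.2 and 94.2 CPM at low density and 62.9, 66.6 and 69.4 CPM at high density. Idgf1, a growth factor gene of the chitinase family without chitinase activity, stood at 72.6, 87.1 and 66.5 CPM at medium density, against 59.7, 62.6 and 55.9 CPM at low density and 35.4, 38.5 and 42.4 CPM at high density. Of 68 tested cuticle genes 2 rose and 2 fell (2.94% each), with a median of 0.12, or -0.06 with library totals alone. The larval cuticle gene Lcp65Ae stood at 1.92, 1.16 and 2.2 CPM at medium density, against 0.521, 0.628 and 0.632 CPM at low density and 0.338, 0.468 and 0.565 CPM at high density.

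All calls among division genes were falls, and the mitosis list as a whole lay near low density. Of 22 mitosis genes 7 were called lower (31.8%, against 16.6% of all genes) and 0 higher, with a median of -0.11. The list median was 0.03 for medium minus low and -0.29 for medium minus high. In 3 members the medium libraries were below all 6 others. The spindle midzone gene feo stood at 24, 24.6 and 25.1 CPM at medium density, against 26.8, 28 and 26.9 CPM at low density and 34.8, 37.3 and 31.6 CPM at high density. The falls were slight, as in the kinase gene polo (-0.24 ± 0.06) and the condensin gene barr (-0.33 ± 0.08), and both of these overlapped low density at medium density. Of 27 DNA replication genes 1 fell, Sld5 (-0.5 ± 0.14), and of 72 mitochondrial ribosomal protein genes 1 rose, mRpL22, and 2 fell, mRpL36 and mRpS18C. With library totals alone 16 mitosis genes and 15 mitochondrial ribosomal protein genes were called lower, where 3094 of all 12883 genes were.

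Markers of several tissues gave no call or few. None of the 23 muscle genes, 14 Malpighian tubule genes, 7 lysozyme genes, 14 heat shock genes, 3 new-glue genes, 4 Eig71E genes or both mitochondrial ribosomal RNAs was called by edgeR, with list medians of -0.05, 0.13, 0.32, 0.33, -0.62, 0.56 and 0.18. At an unadjusted p under 0.05 there was 1 muscle gene, and there were 3 Malpighian tubule genes, 2 heat shock genes and 0 of the other 4 lists. Over all 12883 genes tested, edgeR had 5164 at that threshold. DESeq2 and limma voom each called 1 heat shock gene and 0 of the others. With library totals alone the Malpighian tubule median was -0.05, and 1 muscle gene and 1 heat shock gene were called lower. Under that scaling 3094 of all 12883 genes were called lower. Of 7 salivary glue genes 1 rose, Sgs5, at 11100, 9030 and 10700 CPM at medium density, against 8880, 8360 and 8630 CPM at low density and 6910, 5120 and 4390 CPM at high density. Of 26 neuropeptide and neuronal genes 3 rose, each with its medium libraries above all others. Rises took 14.3% of the glue genes and 11.5% of the neuropeptide and neuronal genes, against 9.48% of all genes. Syt1, the calcium sensor of synaptic vesicles, stood at 249, 245 and 279 CPM at medium density, against 213, 203 and 224 CPM at low density and 224, 182 and 167 CPM at high density, and the peptide genes Tk and AstC had contrasts of 0.79 ± 0.18 and 0.43 ± 0.13. The plot of the gene lists shows the testis lists at one end and lipid storage and fatty acid oxidation at the other.

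**Figure D5:**
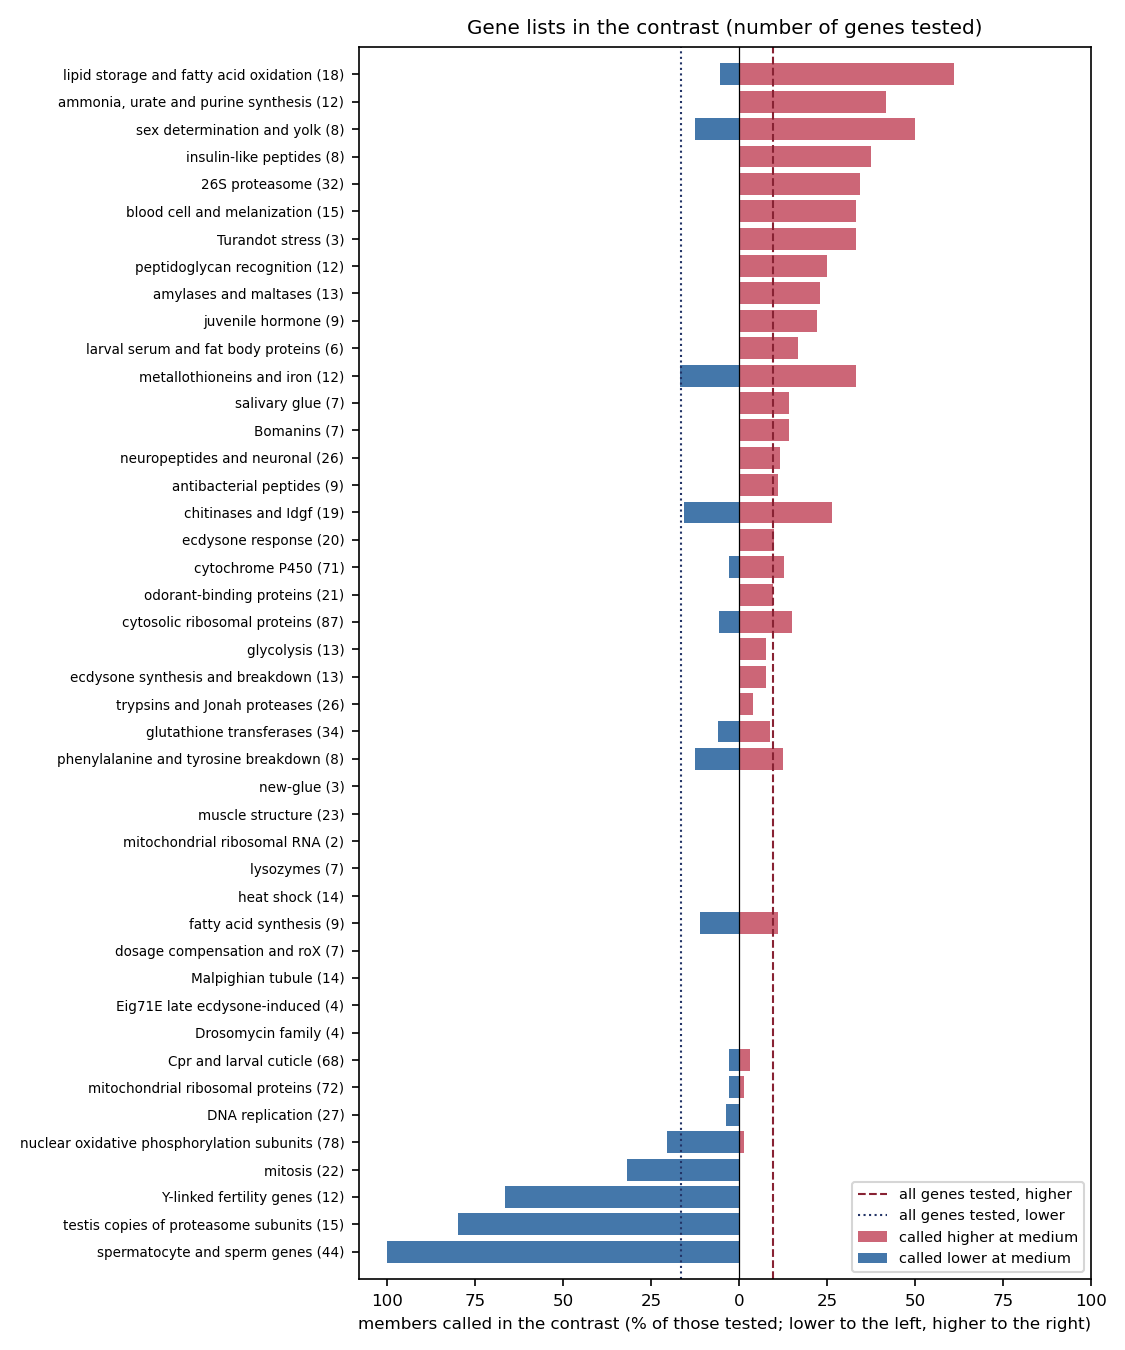
Share of tested members called higher (to the right, red) and lower (to the left, blue) at medium density in each of the 44 gene lists, in percent, with the number of genes tested in brackets. The dashed line marks the 9.48% of all genes called higher and the dotted line the 16.6% called lower; the spermatocyte list reaches 100% lower and the lipid list 61.1% higher.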

How the data were processed

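The deposited table holds expected counts per gene, which the authors left unnormalized. Per the file headers, read pairs were counted by featureCounts 1.6.2 over exons summed per gene symbol, using reverse-strand pairs, with multimapping pairs split into fractions, so that 5.06% of the values are not whole. The submitters' processing notes also name Trim Galore 0.6.4, HISAT2 2.1.0, SAMtools 1.9, DESeq2 1.26.0, R 3.6.1 and the dm6 build. Coordinates are those of the table.

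Expected counts were rounded and tested with edgeR 4.0.16 (quasi-likelihood test) in R 4.3.3, after filterByExpr and TMM scaling, with 1 coefficient per density and the contrast medium minus the mean of low and high. P-values were adjusted over all genes tested. The alternatives used DESeq2 1.42.0, limma 3.58.1 (voom), other scalings and filters, a roX covariate, a replicate block, other weights for low and high, and each library left out. The fits were tested on simulated data. The spermatocyte score is the mean log2 CPM (prior count 2) of that list. No pair of libraries of the same density was alike within sampling noise.

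The members, the 44 gene lists and the rules were chosen with earlier results of these data known. Genes named were those averaging 5 CPM or more in their highest density and with medium libraries clear of the other 6, 8 per direction, ranked by the smaller of the 2 differences; the 4 largest further changes per direction; from each list the member most abundant per kb of exon and up to 3 with the smallest p; and roX1 and roX2. CG10962, CG42586, Had2, CG31775, CG6041, betaTub85D, dsx, Lip3, RpL10Aa, RpS10a and Cht12 were named after their values were seen.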

Additional observations from a re-analysis of the deposited data

How the results depend on the processing

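The 1221 rises became 792 with upper-quartile factors, 343 with library totals alone, 791 when only genes with whole counts entered, and 155 when low and high density formed 1 group. The 2137 falls stayed within 1.5 times their number under each of these. Both counts fell to 0 with roX as a covariate, and to 0 when the straight line over density, which gives low density a weight of 0.814, replaced the mean of the extremes. With a line over log density they were 1634 and 2333. With the spermatocyte score as a covariate, chosen after seeing the data, they were 1 and 0. That score did not overlap between medium and the other pools, so this fit cannot separate it from density. Leaving out 1 library gave between 4 and 1846 rises and between 0 and 2559 falls. Medium beyond both extremes gave 135 genes above and 788 below with DESeq2, and 0 when single libraries were left out. The cause of these shifts was not tested, except that the last fits hold fewer samples. The replicate block gave 1025 rises and 1894 falls. Nothing says whether a replicate number marks a shared batch. Same-numbered deviations correlated between -0.34 and 0.28 and the others between -0.54 and 0.51, which cannot decide it with so few pools. Single values that turned sign were all under the spermatocyte covariate (CG3473 0.02, CecA1 0.03, Cht12 0.25, RpL10Aa 0.15, RpL41 -0.11, Rpt6R 0.07, Syt1 -0.02, roX1 0.3, roX2 0.41, nol -0.11) or, for RpL41, with library totals alone (0). Among 116 genes named here, of which 107 were called, 878 of 2731 alternative values were no longer past the threshold and 17 newly passed it. Single values under a covariate leave out the genes it was made from, whereas the counts of calls include them.

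Whether depth or the number of pools limits the precision was not tested. A floor of 3 counts corresponds to between 0.119 and 0.178 CPM. Reads shared among near-identical copies, as in the ribosomal RNA pseudogenes, roX1 and CG42586, are divided by rule. Sex, developmental hour and culture of the pools are not labelled and cannot be told apart from density.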

Other observations

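By chromosome, rises in the contrast took 12.2% of the 2058 genes tested on X (252 genes), and between 8.73% and 9.34% on each major autosome arm. On the small chromosome 4, 10 of 98 genes rose and 3 fell (3.06%), whereas falls took between 15.4% and 20.2% on the major autosome arms. Of 556 long noncoding RNAs 94 fell (16.9%) and 15 rose (2.7%), and of 280 antisense RNAs 47 fell (16.8%) and 13 rose (4.64%), where 16.6% of all genes fell and 9.48% rose. These differences between classes were not tested.

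CG6041 (chromosome X, 5948160 to 5950208) was called in 8 of the 9 fits that left out a library, at 22.8, 24.3 and 19.6 CPM at medium density, against 16.6, 17 and 14.7 CPM at low density and 10.2, 10.7 and 10.8 CPM at high density.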
